A study of Anser cygnoides with 4 samples.

Results

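ACTC1, ACTA1 and ACTA2 are the cardiac, skeletal and smooth muscle alpha-actin genes, 3 of the 25487 genes in the goose count matrices. They were taken by symbol. Their RNA was read in 3 gates that use no actin. Satellite cells were cells with at least 2 PAX7 UMIs and no MYOG (11896 cells, called PAX7 cells below), differentiating cells were cells with at least 2 MYOG UMIs (12692 cells, MYOG cells), and fibro-adipogenic progenitors (FAPs) were cells with at least 5 DCN and 5 COL6A3 UMIs and neither PAX7 nor MYOG (5090 cells). The retained cells of all kinds numbered 44473. A UMI (unique molecular identifier) marks 1 captured RNA molecule.

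The study followed skeletal muscle satellite cells (SMSCs) of Zhedong White geese through late embryonic growth. Each of the 4 libraries (E13, E15, E18 and E23, embryonic days 13, 15, 18 and 23) was made by droplet capture of RNA 3′ ends from untreated leg muscle cells of female embryos. The embryos of a stage were pooled, 4 according to the methods and 3 according to the labels. Cells were enriched by letting fibroblasts attach to plates and then frozen and thawed, so that cell shares are those of the enriched suspension.

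Actins polymerize into filaments. In the sarcomere, the contractile unit of striated muscle, alpha-actin forms the thin filament on which myosin pulls. Cardiac and skeletal alpha-actin differ by a few residues and are both made in embryonic skeletal muscle of birds and mammals, where the cardiac form is known to come early and the skeletal form to prevail in the mature fibre. Smooth muscle alpha-actin is the actin of vessel walls and of myofibroblasts, and is also made by immature muscle cells.

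The coding sequences of the 3 genes are close to each other, so that reads from shared stretches could be left uncounted or split between them, and the counts depend on how well each 3′ end is annotated. A 3′ library counts each molecule once whatever its length. Levels of different actins are therefore compared below as CPM, the gene's UMIs per 1000000 UMIs of the same cells, and not per length, under this limit. Unless a stage is named, values of the 4 libraries follow in stage order, from E13 to E23.

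After the filters the libraries held 13857 (E13), 10401 (E15), 10227 (E18) and 9988 cells (E23), with medians of 7925 to 10623 UMIs. Kept cells of different libraries shared few barcodes, 195 or 0.44% of the distinct ones. The gates were checked on markers that did not set them. The troponin TNNC2 stood at 1353 to 3204 CPM in MYOG cells, 28.1 to 47.4 CPM in PAX7 cells and 5.65 to 23.9 CPM in FAPs. The FAP markers CDH11 and PDGFRA stood at 347 to 429 CPM and 57.6 to 92.7 CPM in FAPs, against 35.1 to 117 CPM and 0.923 to 1.62 CPM in PAX7 cells. The FAP marker LUM was not among the genes of the files, and the satellite marker CHODL was near 0 in all 3 gates. Each stage is a single library, so no stage was tested against another. Intervals of levels (Poisson) and shares (binomial) are exact, at 95%, and cover counting error only.

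ACTC1 was the dominant muscle actin of MYOG cells at every stage, and ACTA2 that of PAX7 cells and FAPs. Of the UMIs of the 3 actins in MYOG cells, ACTC1 made up 92.4%, 91.4%, 91.4% and 86.3%. In PAX7 cells ACTA2 made up 70.0%, 63.9%, 71.2% and 80.0%. FAPs drew 87.0%, 84.8%, 67.0% and 88.6% from ACTA2. These orders held in 4 of 4 libraries for each gate, by far more than counting error, and the fold of the leading actin over the next was 10.5 to 18.2 in MYOG cells, 1.84 to 5.01 in PAX7 cells and 2.26 to 14.9 in FAPs.

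**Figure D1:**
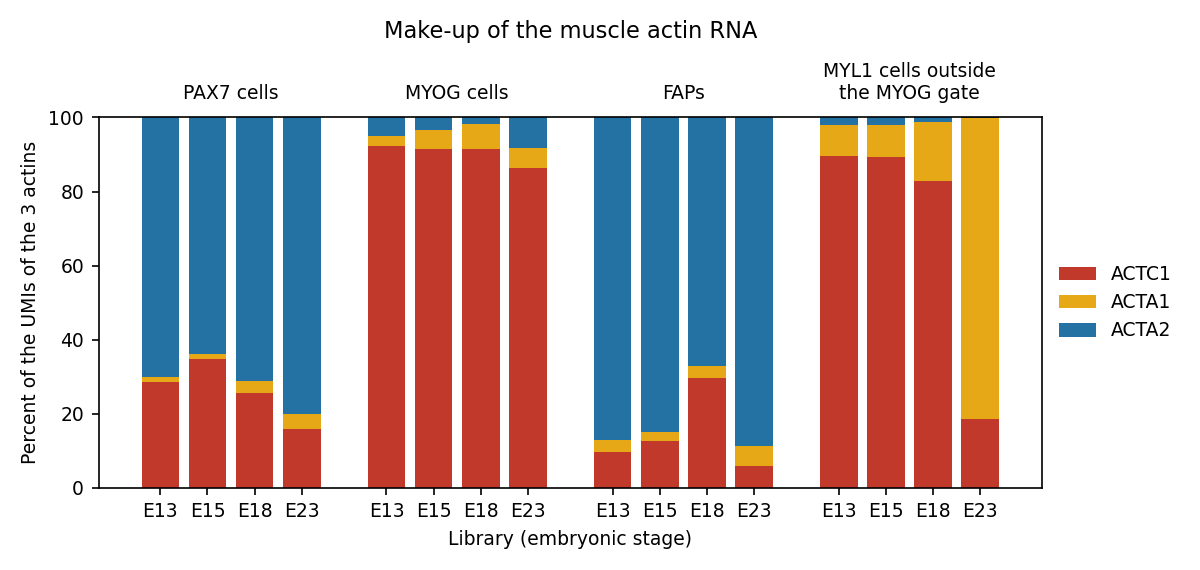
Make-up of the muscle actin RNA. Each bar is 1 library and splits the UMIs of ACTC1, ACTA1 and ACTA2 in a gate into percent, with cells that carry MYL1 but lie outside the MYOG gate at the right. ACTC1 fills 86.3 to 92.4% of the bars of MYOG cells, ACTA2 63.9 to 88.6% of those of PAX7 cells and FAPs, and ACTA1 81.4% of the E23 bar at the far right.

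The order of the other actins differed between gates and stages. In PAX7 cells ACTC1 came next and ACTA1 last in all 4 libraries. FAPs had the same order, but at E23 ACTC1 and ACTA1 lay within counting error of each other, at 18.8 CPM (interval 17.0 to 20.7) and 17.3 CPM (15.5 to 19.1). In MYOG cells ACTA2 stood above ACTA1 at E13 and E23, and ACTA1 above ACTA2 at E15 and E18. The order at E23 was turned in MYOG cells without any PAX7 or DCN, with ACTA1 at 261 CPM (interval 243 to 279) and ACTA2 at 117 CPM (105 to 129).

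ACTC1, the cardiac alpha-actin, reached 4367, 6993, 6763 and 2932 CPM in MYOG cells. PAX7 cells held 119, 183, 71.1 and 93.5 CPM. FAPs held 64.3, 82.7, 96.6 and 18.8 CPM. The lowest library of MYOG cells was above the highest of either other gate, while PAX7 cells and FAPs overlapped: FAPs lay below PAX7 cells at E13, E15 and E23 and above them at E18.

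The difference between MYOG and PAX7 cells in ACTC1 was 5.52 on the log2 scale (SE 0.41, edgeR adjusted p = 4.85e-05), and it was 31.4-fold to 95.1-fold in the single libraries. Against FAPs it was 6.38 (SE 0.43, edgeR adjusted p = 6.63e-06), and 67.9-fold to 156-fold in the libraries. Among the 14671 genes tested, 20.3% were higher and 19.5% lower in MYOG than in PAX7 cells, and 32% higher and 31.4% lower than in FAPs, so a call alone is common in these comparisons. PAX7 cells against FAPs gave 0.87 for ACTC1 (SE 0.35, edgeR adjusted p = 0.0779, higher in 3 of 4 libraries), where 21.2% of genes were called higher and 21.6% lower in PAX7 cells. This last value depended on E18: without that library it was 1.30 with an edgeR adjusted p of 0.0139. Gates set on cells thinned to 4000 UMIs gave 1.62, nearly 2 times the estimate, with an edgeR adjusted p of 0.00425, and DESeq2 on the same sums gave 0.87 with an adjusted p of 0.0316. Without E23 the difference was 0.47, and in PAX7 cells and FAPs without any TNNC2 it was 0.33 (edgeR adjusted p = 0.465).

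ACTA1, the skeletal alpha-actin of the mature fibre, was found at much lower levels. MYOG cells held 119, 388, 502 and 188 CPM. The 1% of MYOG cells with most ACTA1 held 39.3%, 24.6%, 23.5% and 36.1% of the gate's ACTA1 UMIs. Without this 1% the gate stood at 73.1, 297, 389 and 122 CPM. The median ACTA1 level of single MYOG cells was 0 in every library. PAX7 cells held 5.94, 7.30, 9.05 and 23.8 CPM, and FAPs 21.3, 16.8, 11.0 and 17.3 CPM. All MYOG values lay above all values of the other gates. In PAX7 cells E23 stood above the 3 earlier stages. The 1% of PAX7 cells with most ACTA1 held 36.0%, 37.3%, 36.8% and 53.5% of its UMIs, and without them the levels were 3.85, 4.64, 5.78 and 11.2 CPM, with E23 still the highest. Immune cells, defined below and taken as background, were also highest at E23. Without their cell with most ACTA1 they held 3.63, 0, 1.54 and 21.2 CPM, on few UMIs. Whether the E23 level of PAX7 cells exceeded this background was not tested.

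MYOG cells exceeded PAX7 cells in ACTA1 by 4.87 (log2, SE 0.64, edgeR adjusted p = 0.000656) and FAPs by 4.05 (SE 0.62, edgeR adjusted p = 0.000487), with the same direction in 4 of 4 libraries. Leaving out E23 moved the difference from PAX7 cells to 5.52, and leaving out E18 moved the difference from FAPs to 3.48. Both remained called in every fit that left out 1 library. PAX7 cells and FAPs differed by -0.82 (SE 0.57, edgeR adjusted p = 0.273), with PAX7 cells lower in 3 libraries and higher at E23. It was -1.35 without E23 and -0.33 without E13, and was not called in either fit.

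ACTA2, the smooth muscle alpha-actin, was spread more evenly. FAPs held 572, 555, 218 and 281 CPM. PAX7 cells held 292, 337, 198 and 469 CPM, and MYOG cells 240, 268, 136 and 278 CPM. The 3 gates overlapped, and within each gate E18 was the lowest library, 2.04-fold to 2.62-fold below the highest.

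MYOG cells were lower in ACTA2 than PAX7 cells in 4 of 4 libraries, but by little: the log2 difference was -0.39 (SE 0.24, edgeR adjusted p = 0.214). Against FAPs it was -0.82 (SE 0.24, edgeR adjusted p = 0.0145), again lower in 4 of 4 libraries. At E23 the values of MYOG cells and FAPs were 278 CPM (interval 268 to 289) and 281 CPM (274 to 288) and overlapped. This call was lost without E13 (-0.65, edgeR adjusted p = 0.0689), without E15 (-0.76, edgeR adjusted p = 0.0581), with gates on thinned cells (-0.50, edgeR adjusted p = 0.119) and without the library block (-0.87, edgeR adjusted p = 0.058). PAX7 cells against FAPs gave -0.43 (SE 0.24, edgeR adjusted p = 0.18). PAX7 cells were lower at E13, E15 and E18 and higher at E23, and without E23 the difference was -0.73 with an edgeR adjusted p of 0.014.

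**Figure D2:**
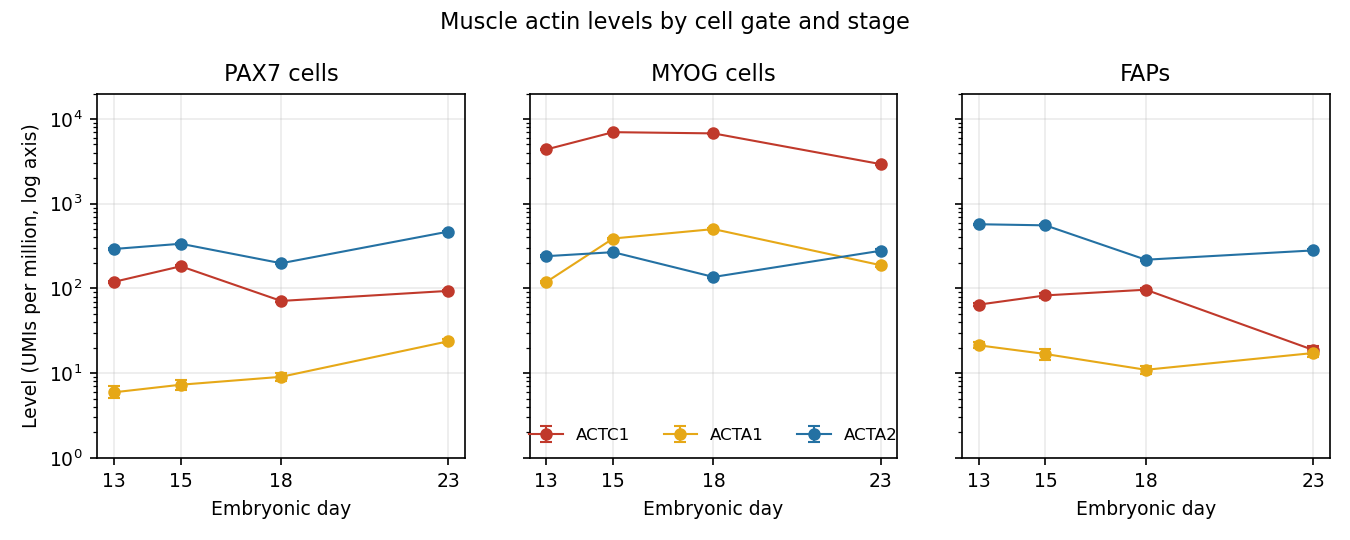
Levels of the 3 actins (CPM, log axis) by embryonic day in PAX7 cells, MYOG cells and FAPs, 1 library per day, with exact 95% Poisson intervals. ACTC1 lies at 2932 to 6993 CPM in MYOG cells and at 18.8 to 183 CPM in the other gates, while ACTA2 stays between 136 and 572 CPM in all 3.

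**Figure D3:**
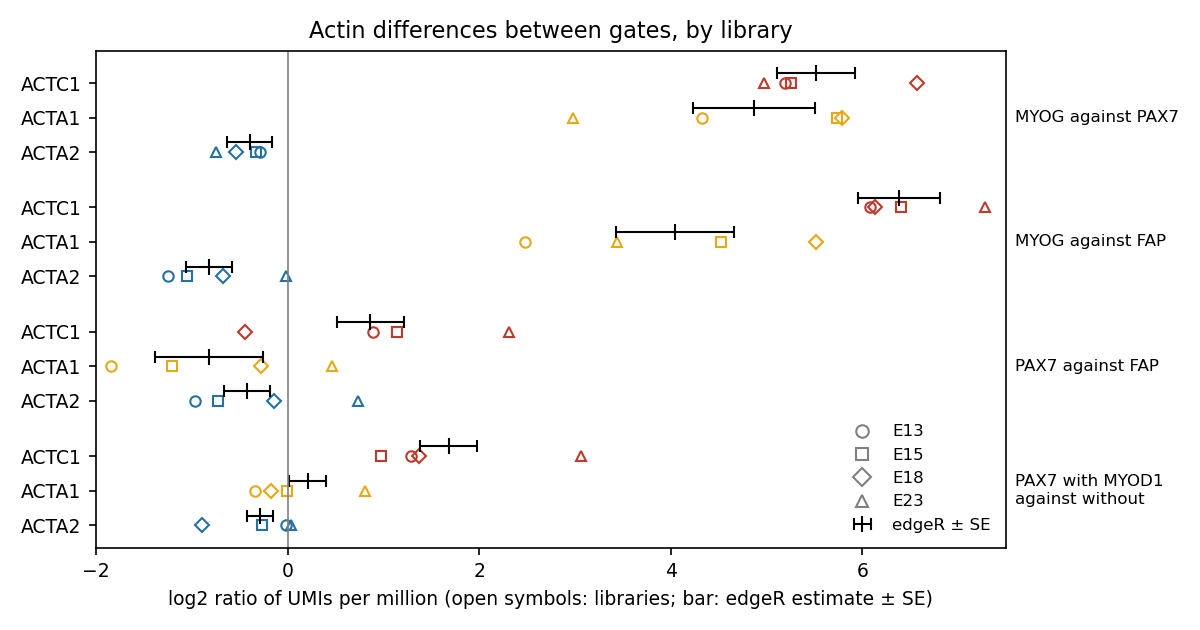
Differences of the 3 actins between gates on the log2 scale. Open symbols are single libraries, and bars are edgeR estimates with their SE. ACTC1 and ACTA1 lie to the right of 0 in every library for MYOG cells, ACTA2 to the left, and the libraries of PAX7 cells against FAPs fall on both sides of 0.

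Across stages ACTC1 in MYOG cells was highest at E15 and lowest at E23, a 2.38-fold range. ACTA1 in the same cells ranged 4.22-fold, from E13 to E18. FAPs ranged 5.13-fold in ACTC1, with E18 highest and E23 lowest, and 1.95-fold in ACTA1. Over all retained cells ACTC1 ranged from 433 CPM at E23 to 3610 CPM at E15, alongside the share of cells in the MYOG gate, which was 13.3% at E23 and 51.4% at E15. Fewer cells of a type and less RNA per cell cannot be told apart in such totals.

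Most ACTC1 RNA of a library lay in MYOG cells, which held 75.0%, 96.1%, 90.9% and 61.5% of its UMIs. The same cells held 11.7%, 40.0%, 16.1% and 6.54% of the ACTA2 UMIs. ACTA1 followed ACTC1 at E15 (94.6%) and E18 (85.6%) but not at E13 and E23. At E13 MYOG cells held 48.2% and cells outside all gates 38.8% of the ACTA1 UMIs. At E23 these shares were 19.6% and 63.0%.

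The leading actin was also counted cell by cell. Among MYOG cells with at least 10 actin UMIs, ACTC1 had the most UMIs in 97.9%, 96.9%, 99.1% and 92.4%. ACTA2 led in 96.0%, 96.0%, 75.3% and 95.6% of such FAPs. Such PAX7 cells were led by ACTA2 in 67.2%, 71.9%, 74.0% and 85.4%, but they were few, 173 to 1042 per library.

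In PAX7 cells with at least 20 actin UMIs the order changed. ACTC1 led in 63.0% of 54, 56.5% of 92 and 87.9% of 33 cells at the first 3 stages, whereas ACTA2 led in 62.6% of 227 cells at E23. ACTC1 was less evenly spread over PAX7 cells than ACTA2: the 1% with most ACTC1 held 31.5%, 25.7%, 47.7% and 35.6% of its UMIs, against 4.94 to 7.97% for ACTA2. ACTA1 led in at most 0.960% of the PAX7 cells with 10 or more actin UMIs in any library.

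To compare how many cells carried a UMI of each actin, every cell was thinned to 4000 UMIs. The thinning left out 55 to 170 PAX7 cells, 116 to 241 MYOG cells and 0 to 11 FAPs per library. ACTC1 was then found in 85.1 to 88.5% of MYOG cells, and in 20.3%, 32.3%, 12.2% and 13.1% of PAX7 cells. Immune cells (2 or more PTPRC UMIs and none of PAX7, MYOG or DCN), which should lack these genes, gave 10.5%, 10.0%, 8.45% and 3.36%. They numbered 10 to 149 at this depth. The interval of the immune share (upper bounds 24.8%, 44.5%, 17.5% and 7.66%) reached the share of PAX7 cells at E13, E15 and E18 and stayed below it at E23. FAPs gave 15.9%, 24.7%, 18.0% and 5.51%, within the immune interval at E13, E15 and E23 and above it at E18. As a level, ACTC1 in immune cells, not thinned, stood at 24.6, 71.3, 42.5 and 14.6 CPM, on 6 to 28 UMIs. The intervals of these levels held the FAP level at E15 and E23 and lay below it at E13 and E18.

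Free RNA in the suspension can add UMIs to any cell. Whether the ACTA1 shares of PAX7 cells exceeded this background could not be decided, because the immune cells were few. ACTA1 was found in 2.26%, 2.26%, 2.56% and 5.54% of thinned PAX7 cells and in 5.26%, 0%, 2.82% and 6.71% of immune cells. At E15 this was 0 of 10 immune cells, with an upper limit of 30.9%. MYOG cells, with 13.9%, 26.1%, 28.4% and 20.5%, lay above the immune share in each library. Their shares were within the immune interval at E13 and E15 and above it at E18 and E23. ACTA2 was well above background, in 55.0%, 58.3%, 42.7% and 69.0% of PAX7 cells, 41.2 to 69.8% of FAPs and 32.5 to 54.3% of MYOG cells against 2.63%, 0%, 4.23% and 3.36% of immune cells. Before thinning ACTC1 was found in 34.9%, 54.1%, 27.5% and 23.2% of PAX7 cells (median depths 9110 to 11972 UMIs) and 13.7%, 21.4%, 20.5% and 7.78% of immune cells (median depths 4748 to 6410 UMIs).

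Within PAX7 cells, those with MYOD1 held more ACTC1. MYOD1 is the transcription factor that commits a cell to the muscle lineage, and cells with at least 3 of its UMIs were set against cells with none. ACTC1 stood at 121, 210, 113 and 192 CPM in the first and at 49.5, 107, 43.8 and 23.0 CPM in the second. The intervals did not overlap in any library. The share of cells with an ACTC1 UMI, not thinned, was 36.3%, 56.5%, 28.2% and 32.0% in the first and 28.7%, 48.0%, 27.7% and 15.3% in the second, so that at E18 the shares lay within counting error of each other, and there 46.1% of the ACTC1 UMIs of cells with MYOD1 came from 1% of them. The log2 difference was 1.68 (SE 0.29, edgeR adjusted p = 0.013) among 13158 genes tested, of which 3.35% were called higher and 3.13% lower.

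This difference was the largest at E23, where it was 8.34-fold, and without E23 it was 1.21 with an edgeR adjusted p of 0.00098. Both sums of a stage come from 1 library, which the fit blocks, and without that block the difference was 1.49 and not called (edgeR adjusted p = 1). Cells with MYOD1 also carried more TNNC2 (1.61, edgeR adjusted p = 0.0198), and in PAX7 cells without any TNNC2 the ACTC1 difference was 1.08 (edgeR adjusted p = 0.033). ACTA1 (0.21, SE 0.20, edgeR adjusted p = 0.685, higher in 1 of 4 libraries) and ACTA2 (-0.29, SE 0.13, edgeR adjusted p = 0.306, lower in 3 of 4 libraries) did not pass the test. In PAX7 cells without TNNC2 the ACTA1 difference was -0.51 (edgeR adjusted p = 0.186).

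PAX7 cells in the cell cycle were taken as those with at least 2 of 6 cycling genes detected. Relative to their total UMIs, they held less ACTC1 and ACTA2 than the others in every library. For ACTC1 the cycling cells stood at 99.9, 149, 34.6 and 36.7 CPM and the others at 129, 206, 111 and 149 CPM. For ACTA2 they stood at 239, 277, 162 and 375 CPM against 318, 378, 239 and 560 CPM. Counted per cell the order differed. Cycling cells held 1.25, 2.14, 0.503 and 0.552 ACTC1 UMIs per cell, against 1.12, 1.83, 1.03 and 1.60 in the others. For ACTA2 they held 2.99, 3.98, 2.35 and 5.63 UMIs per cell against 2.76, 3.36, 2.21 and 6.02. Per cell they were thus higher at E13 and E15 in ACTC1, and at E13, E15 and E18 in ACTA2. Cycling cells were deeper, with medians of 12545 to 14732 UMIs against 8272 to 10623 UMIs, and the part of depth in detecting the cycling genes was not tested. Cycling FAPs held less ACTA2 than the other FAPs at E18 (192 against 370 CPM) and E23 (232 against 340 CPM), and at E13 and E15 the intervals overlapped.

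Cells that carried both PAX7 (2 or more UMIs) and MYOG were part of the MYOG gate, and their ACTC1 lay between the gates, at 2027, 3563, 3858 and 2006 CPM, with ACTC1 leading in all 4 libraries. MYOG cells without any PAX7 or DCN held 5328, 10831, 9032 and 4274 CPM. Their ACTA2 was close to that of all MYOG cells at E13 to E18 (225, 265 and 143 CPM) but 2.39-fold lower at E23, at 117 CPM in place of 278 CPM. Thinned MYOG cells without any ACTC1 UMI numbered 319, 640, 397 and 175, and held PAX7 at 194, 529, 315 and 560 CPM, more than in any class of MYOG cells with ACTC1 in the same library.

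To follow the actins through differentiation, MYOG cells of each library were split into 3 groups of equal size by a sarcomere score. The score was the summed CPM of 9 sarcomere genes (MYH15, MYL1, TNNC1, TNNC2, TNNI1, TNNI2, TNNT2, TNNT3 and TPM2). Of these, TPM2 was not particular to MYOG cells, at 258 to 538 CPM there, 263 to 460 CPM in PAX7 cells and 402 to 572 CPM in FAPs. The lowest groups scored 399, 436, 343 and 500 CPM, and the part of TPM2 in their score was not tested. ACTC1 stood at 1093, 854, 838 and 787 CPM in the lowest groups, 3105, 5427, 4384 and 2737 CPM in the middle groups and 8562, 14240, 14279 and 5733 CPM in the highest. The lowest groups of the 4 libraries were the closest to each other, at 787 to 1093 CPM. The libraries parted in the middle group, at 2737 to 5427 CPM, and in the highest group.

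ACTA1 differed more steeply over the same groups. It stood at 10.8, 9.74, 15.0 and 18.3 CPM in the lowest, 25.2, 91.9, 149 and 129 CPM in the middle and 301, 987, 1243 and 455 CPM in the highest groups. From the lowest to the highest group this was 27.9-fold, 101-fold, 82.7-fold and 24.8-fold, against 7.83-fold, 16.7-fold, 17.0-fold and 7.28-fold for ACTC1. The share of ACTA1 among the 3 actins was 0.803 to 1.60% in the lowest groups and 3.30%, 6.36%, 7.91% and 7.23% in the highest, so ACTC1 still led there. The groups were set by measured sarcomere genes of the same cells, and these values are a description without a test.

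ACTA2 did not follow this order. It changed little at E13 (240, 209 and 267 CPM) and E15 (249, 257 and 294 CPM), and was higher with the score at E18 (84.0, 140 and 183 CPM). At E23 it was lower with the score, at 411, 296 and 99.6 CPM. PAX7 in these E23 groups was 486, 337 and 173 CPM, the highest PAX7 levels among the 4 libraries for each group, and its part in the pattern was not tested. In the lowest groups ACTA2 made up 17.9%, 22.4%, 8.97% and 33.8% of the 3 actins.

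**Figure D4:**
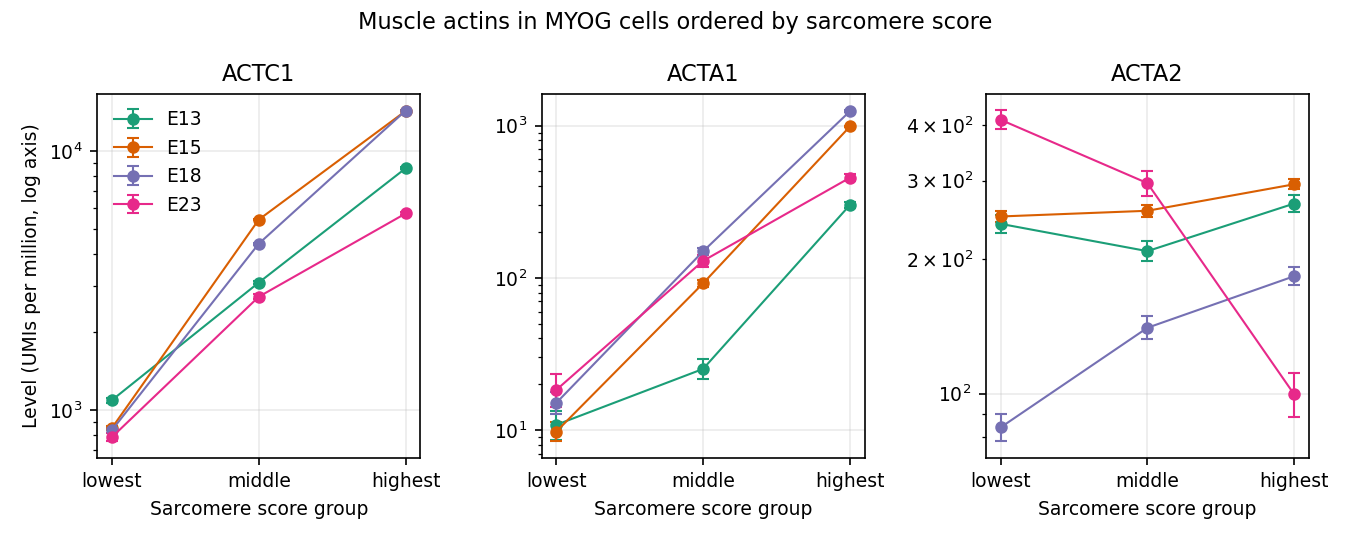
ACTC1, ACTA1 and ACTA2 (CPM, log axes that differ between panels) in MYOG cells split into 3 equal groups by sarcomere score, with exact 95% Poisson intervals and 1 line per library. ACTC1 and ACTA1 are higher in each group than in the one before in all 4 libraries, and ACTA2 is lower only at E23, from 411 to 99.6 CPM, when the highest and the lowest groups are compared.

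Cells in which ACTA1 led were found mostly at E23 and mostly outside the gates. Cells with at least 50 ACTA1 UMIs, a minimum set after the values were seen, numbered 13, 93, 66 and 34. At E15 and E18 most of them, 92 and 59, were in the MYOG gate, and ACTC1 was below ACTA1 in 2 and 5. At E23 only 5 were in the MYOG gate, 26 had no MYOG UMI, and ACTC1 was below ACTA1 in 31. These 34 cells held 56.9% of all ACTA1 UMIs of the E23 library. They were shallow, with a median of 3361 UMIs against 10623 for the library.

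A set that uses no actin was then taken, cells outside all gates with at least 10 UMIs of MYL1, a fast myosin light chain, at most 1 MYOG UMI and no DCN. This set was chosen after ACTA1 levels had been seen. It held 85, 37, 41 and 34 cells, of which 2, 0, 5 and 20 had at least 50 ACTA1 UMIs. ACTC1 stood at 9598, 11701 and 11674 CPM at E13, E15 and E18, with ACTA1 at 895, 1145 and 2275 CPM. At E23 the order was turned, with ACTA1 at 27485 CPM (interval 26663 to 28326) and ACTC1 at 6233 CPM (5845 to 6640). ACTA1 was thus 81.4% of the 3 actins at E23, and 8.36%, 8.73% and 16.1% before. The median depth of these cells was 8113, 9371, 8451 and 3804 UMIs.

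Counted by cell, ACTA1 led in 0 of 85, 1 of 37, 1 of 41 and 20 of 34 of these cells, and ACTC1 in the other 14 at E23. Of the 34 cells at E23, 30 had no MYOG UMI, and ACTA2 in the 34 was 58.4 CPM (9 UMIs). Other genes high in the E23 cells, named from those with at least 50 UMIs there, were ENO3 (526 CPM against 1.48 CPM in MYOG cells of the same library), CKM (825 CPM, 43.4-fold that of MYOG cells), GAMT (513 against 15.9 CPM), GATM (1253 against 49.3 CPM), MYBPC1 (429 against 14.0 CPM) and MYOZ2 (734 against 34.1 CPM). The minimum of 50 UMIs was met in the group where these genes are high, so their folds are a description only. ENO3 is the enolase of muscle glycolysis and CKM the muscle creatine kinase, GATM and GAMT make creatine, MYBPC1 binds the thick filament, and MYOZ2 lies at the Z-disc.

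**Figure D5:**
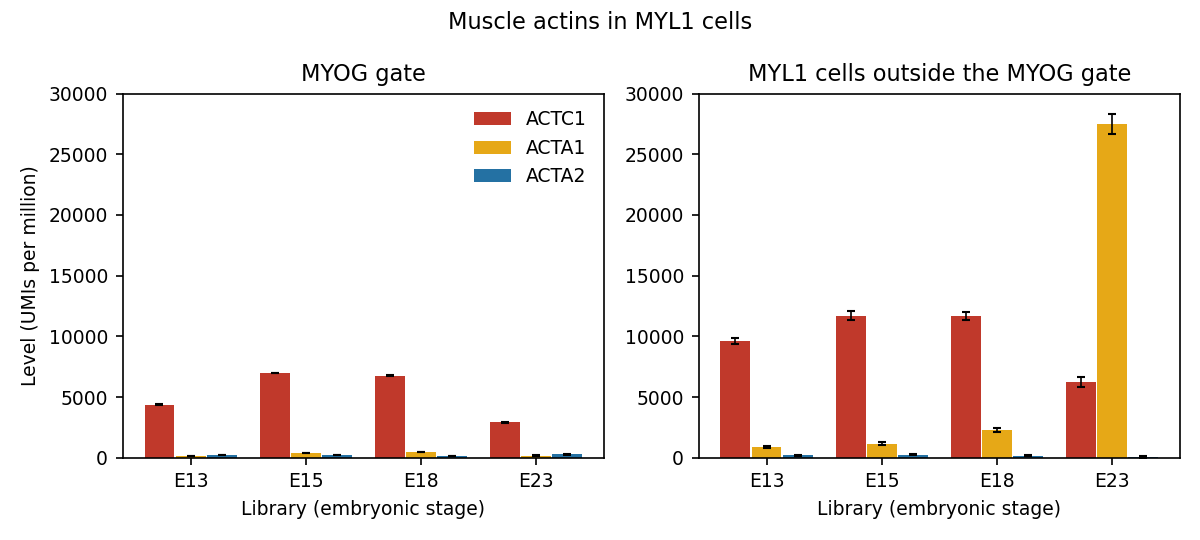
Levels (CPM) of the 3 actins in the MYOG gate (left) and in MYL1 cells outside it (right), by library, with exact 95% Poisson intervals. The right panel rests on 34 to 85 cells per library. ACTC1 is the tallest bar everywhere except at E23 on the right, where ACTA1 reaches 27485 CPM.

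Actin RNA in FAPs did not have the proportions it had in MYOG cells. For each TNNC2 UMI, MYOG cells held 2.10 to 2.53 ACTC1 UMIs in the 4 libraries, and FAPs 5.07, 3.47, 10.9 and 3.33. For each 100 ACTC1 UMIs, MYOG cells held 2.72, 5.55, 7.42 and 6.41 ACTA1 UMIs, and FAPs 33.1, 20.3, 11.3 and 91.8. PAX7 cells held 2.52, 4.29, 2.53 and 2.73 ACTC1 UMIs for each TNNC2 UMI. For each 100 ACTC1 UMIs they held 4.97, 4.00, 12.7 and 25.4 ACTA1 UMIs, so FAPs were not the only gate to depart from MYOG cells.

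At E18, where FAPs exceeded PAX7 cells in ACTC1, 64 of 1396 FAPs (4.58%) had at least 10 ACTC1 UMIs and held 63.7% of the gate's ACTC1. At the other stages such FAPs were 1.92%, 1.56% and 0.541%. Over the 4 libraries TNNC2 in such FAPs stood at 46.1, 16.4, 10.0 and 14.9 CPM (29, 4, 15 and 2 UMIs). FAPs without ACTC1 held 11.9, 23.1, 8.31 and 4.04 CPM. The 64 cells carried ACTC1 at 1152 CPM, DCN at 1215 CPM and TNNC2 at 10.0 CPM, and 51 of them had no TNNC2 UMI. Their TAGLN and ACTA2 stood at 758 and 484 CPM, against 312 and 184 CPM in E18 FAPs without ACTC1. They were also deeper (median 22397 against 18896 UMIs), and the part of depth was not tested. The minimum of 10 UMIs was set after the values were seen.

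ACTA2 in FAPs went with TAGLN, which encodes transgelin, an actin-binding protein of smooth muscle and fibroblasts. Across cells thinned to equal depth the Spearman correlation of the 2 genes was 0.53, 0.54, 0.36 and 0.39 in FAPs and 0.17 to 0.32 in PAX7 cells, in cells that share a library. ACTC1 and TNNC2 in MYOG cells had correlations of 0.69, 0.83, 0.80 and 0.59. ACTC1 and ACTA2 in MYOG cells had 0.12, 0.10, 0.18 and, at E23, -0.35. These correlations are descriptions.

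The cytoplasmic actins were lower in MYOG cells. Of 5 other actin genes (the cytoplasmic ACTB and ACTG1, the enteric smooth muscle ACTG2, and ACTR2 and ACTR3 of the complex that branches filaments), 0 were called higher and 3 lower in MYOG than in PAX7 cells, with a median log2 difference of -0.57 beside 0.00193 over all genes tested. Against FAPs 0 were higher and 4 lower (median -0.89 beside 0.00834). The shares called lower, 60% and 80%, stand beside 19.5% and 31.4% of all genes, in a list of 5. In all 4 comparisons by edgeR, the count of 0 higher was also 0 at an unadjusted p under 0.05 and by DESeq2. ACTB stood at 967, 1478, 1423 and 1981 CPM in MYOG cells and 2328, 3052, 2981 and 3957 CPM in PAX7 cells, with a log2 difference of -0.99 (SE 0.14, edgeR adjusted p = 0.00108). ACTG1 gave -0.99 (SE 0.074, edgeR adjusted p = 4.94e-05). ACTC1 alone was above ACTB in MYOG cells in every library.

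In ACTB and ACTG1 PAX7 cells stood between the other gates in every library. Against FAPs 0 of the 5 were higher and 3 lower in PAX7 cells (60% called lower beside 21.6% of all genes, median -0.31 beside -0.00219). In the MYOD1 comparison 0 were higher and 1 lower, ACTB at -0.20 (edgeR adjusted p = 0.0171). The 20% called lower stands beside 3.13% of all genes, in a list of 5, and the median of the 5 was -0.20 beside -0.0078. The enteric ACTG2 did not pass the test in any comparison and lay between 2.89 and 31.7 CPM.

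Of 18 genes that assemble, cap or regulate thin filaments, 10 were higher and 1 lower in MYOG than in PAX7 cells (median log2 difference 0.76 beside 0.00193 over all genes), and 9 were higher and 1 lower against FAPs (median 0.95 beside 0.00834). The shares called higher were 55.6% and 50%, beside 20.3% and 32% of all genes. NEB, the nebulin ruler of the thin filament, had the largest difference from PAX7 cells (5.55, edgeR adjusted p = 5.78e-05), close to that of ACTC1, followed by the pointed-end cap TMOD1 (4.77, edgeR adjusted p = 4.42e-05) and the nucleator LMOD3 (4.45, edgeR adjusted p = 7.41e-05). TPM4, a tropomyosin of non-muscle filaments, was the one called lower (-1.44, edgeR adjusted p = 3.59e-05). The capping subunits CAPZA1, CAPZA2 and CAPZB, which are used in all cells, stood at 0.11, -0.0088 and 0.17 and were not called. SETD3, the enzyme that methylates actin, was higher in MYOG cells by 0.88 (edgeR adjusted p = 0.00134).

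PAX7 cells were higher than FAPs in 5 of the 18 and lower in 2 (median 0.38 beside -0.00219), and the 27.8% called higher is near the 21.2% of all genes. The largest difference was LMOD2 (5.19, edgeR adjusted p = 0.00293), also a leiomodin, and the lowest TPM1 (-1.35, edgeR adjusted p = 0.0198). LMOD2 was nearly absent from FAPs, at 0.0361, 0.0966, 0.0357 and 0.0467 CPM, less than 3 UMIs in each library. PAX7 cells held 0.0791, 4.27, 3.54 and 1.33 CPM, so the size of this difference is uncertain. In the MYOD1 comparison 17 were tested, 4 were higher (NEB with 2.04, edgeR adjusted p = 0.00227, was the largest) and 3 lower (23.5% and 17.6% beside 3.35% and 3.13% of all genes; median 0.07 beside -0.0078), the lowest being the formin FHOD3 (-0.59, edgeR adjusted p = 0.00182).

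Muscle actin genes are targets of the serum response factor SRF and its partners. Of 10 genes of this circuit, 6 were higher and 1 lower in MYOG than in PAX7 cells (median 0.65 beside 0.00193), and again 6 higher and 1 lower against FAPs (median 0.70 beside 0.00834). This is 60% higher in each, beside 20.3% and 32% of all genes. CSRP3, a muscle LIM protein, had the largest difference (5.75, edgeR adjusted p = 0.000131) and FHL2, another LIM protein, the lowest (-2.47, edgeR adjusted p = 0.0151). SRF itself was higher by 0.82 (edgeR adjusted p = 0.0018), and its coactivator MRTFB by 0.48 (edgeR adjusted p = 0.00442). PAX7 cells against FAPs gave 1 higher and 1 lower (median 0.21 beside -0.00219), 10% each and below the 21.2% and 21.6% of all genes. VGLL2, a cofactor of TEAD factors in muscle, was the one higher, by 3.20 (edgeR adjusted p = 0.000573). It was also the only one higher in PAX7 cells with MYOD1 (2.68, edgeR adjusted p = 0.00119), which is 10% beside 3.35% of all genes. There 0 were lower by edgeR (1 at an unadjusted p under 0.05, 0 by DESeq2), and the median was 0.15 beside -0.0078.

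Of 12 smooth muscle and mural genes, 11 were in the files, of which TPM4 and ACTG2 also belong to lists above, as LMOD1 does. In MYOG against PAX7 cells 2 were higher and 3 lower (median -0.32 beside 0.00193), and against FAPs 2 were higher and 4 lower (median -0.17 beside 0.00834). These shares, 18.2% and 27.3%, then 18.2% and 36.4%, are near or below those of all genes, 20.3% and 19.5%, then 32% and 31.4%. Calponin CNN1 was the highest in the first comparison (1.63, edgeR adjusted p = 0.00357) and the mural receptor PDGFRB the lowest (-2.46, edgeR adjusted p = 0.00172), with TAGLN also lower (-1.64, edgeR adjusted p = 0.00883). PAX7 cells against FAPs gave 1 higher, the G-protein regulator RGS5 (2.33, edgeR adjusted p = 0.000512), and 5 lower (45.5% beside 21.6% of all genes; median -0.64 beside -0.00219), with TAGLN at -1.96 (edgeR adjusted p = 0.0038). In the MYOD1 comparison 9 were tested, with 0 higher by edgeR (1 at an unadjusted p under 0.05, 0 by DESeq2) and 3 lower. This is 33.3% called lower, beside 3.13% of all genes, and the median was -0.24 beside -0.0078.

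Mural markers did not share 1 order over the gates. PDGFRB stood at 101 to 203 CPM in FAPs, 12.7 to 103 CPM in PAX7 cells and 3.54 to 15.0 CPM in MYOG cells. RGS5 was lowest in FAPs, with 0.676 to 1.18 CPM against 3.51 to 9.21 CPM in PAX7 cells and 5.71 to 10.3 CPM in MYOG cells. MYH11 was under 2 CPM in every gate and library, and NOTCH3 was not among the genes of the files. The summed markers (RGS5, PDGFRB, KCNJ8, MYH11 and CNN1), of which PDGFRB is most in FAPs, were 123 to 225 CPM in FAPs, below ACTA2 in each library, and their part in the ACTA2 levels was not tested.

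Over the 12 sums of gates and libraries, the genes with the most similar log2(CPM + 1) to ACTC1 among 6977 genes were TNNI1 (Pearson r = 0.992), LOC125179675 (0.988), TNNC2 (0.986), MYL1 (0.985) and TNNT2 (0.985), 4 of them sarcomere genes. For ACTA1 they included LOC106048216 (0.958), RIPOR2 (0.958) and NAXD (0.955). For ACTA2 they were PFN1, the actin monomer-binding protein profilin (0.895), TMF1 (0.887), RAI14 (0.875), LOC136789025 (0.869) and CNNM2 (0.865). ACTC1 and ACTA1 had r = 0.90 with each other, and each was negatively related to ACTA2 (-0.48 and -0.40). The 12 sums fall into 3 gates of 4 libraries each, which alone can give high values, and the correlations are descriptions.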

How the data were processed

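Single-cell RNA 3′ ends of 4 libraries were counted. The authors deposited raw UMI counts for each gene in each barcode. These came from Cell Ranger, of which the submitters' notes name version 7.1.0 and the matrix headers 9.0.0. The build named in the methods differs from the assembly of the gene table used here, in which all 25487 gene names matched, so no coordinates are given. Both the lists and the 3 genes were chosen with earlier results of these data known.

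A cell was kept if it had from 300 to 6500 detected genes, a total between 1000 and 50000 UMIs and a mitochondrial share of up to 20%. The barcodes with the highest Scrublet scores (scanpy 1.11.5, seed 1) were removed as doublets at 0.8% per 1000 barcodes, 958 to 2015 per library. Of 11261 to 16077 barcodes per library, 9988 to 13857 remained.

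Counts were summed per library and gate, since cells are not replicates, and tested with edgeR 4.0.16 (TMM, filterByExpr, quasi-likelihood test, R 4.3.3), with library as a block and p-values adjusted over all genes tested by Benjamini-Hochberg. Calls are at 0.05. The number of the library pairs the sums because the gates of a library come from the same pooled embryos, and the residuals of gates of 1 library correlated at 0.318 to 0.651 over 12 pairs. With this block, p-values measure how far a difference between groups of cells varied across these 4 libraries. The libraries are single pools of different stages and not replicates. Named genes are the 3 actins in every gate, the members of 4 lists with the largest and smallest folds, and the 5 genes most similar to each actin among those with a mean of at least 20 CPM. Some of the genes similar to ACTA1 are not reported here. Other list members named, the genes named in MYL1 cells, and the sets of MYL1 cells and of FAPs rich in ACTC1 were chosen after their values were seen. The method was tested on simulated data. Alternatives were DESeq2 1.42.0 and its size factors, no filter, no block, leaving out each library, doublets kept, stricter gates (PAX7 and MYOG at least 4, DCN and COL6A3 at least 10), gates on thinned cells, MYOG cells without PAX7 and DCN and, added after seeing the data, PAX7 cells and FAPs without TNNC2 and gates without the 1% of cells with most ACTA1. Python 3.11.15, NumPy 2.4.6, pandas 2.3.3, SciPy 1.17.1 and matplotlib 3.10.9 were used.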

Additional observations from a re-analysis of the deposited data

Results flagged for a closer look

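In 3 cases PAX7 cells and FAPs stood in a different order in different libraries, and the difference between stages was not tested because each stage is 1 library. As a log2 ratio of CPM, PAX7 cells over FAPs, ACTC1 was at 0.89, 1.14 and 2.31 at E13, E15 and E23 and at -0.44 at E18. For ACTA1 the ratio was -1.84, -1.20 and -0.28 at E13, E15 and E18 and 0.46 at E23. For ACTA2 it was -0.97, -0.72 and -0.14 at the first 3 stages and 0.74 at E23.

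In MYOG cells the log2 ratio of ACTA2 between the highest and the lowest group of the sarcomere score was 0.15, 0.24 and 1.13 at E13, E15 and E18 and -2.04 at E23. This difference between stages was not tested either.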

How the results depend on the processing

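Of 162 alternative values of the 12 actin differences, 152 kept their direction (or were not called) and their side of the threshold, 10 did not, and 0 called values changed sign. The leading actin of each gate held in 4 of 4 libraries under 6 alternatives. With no filter ACTA2 was called in the MYOD1 comparison (-0.26, edgeR adjusted p = 0.037), and 853 genes were called higher and 738 lower there. DESeq2 called ACTC1 between PAX7 cells and FAPs (0.87). Without the replicate block (library), ACTA2 between MYOG cells and FAPs (-0.87) and ACTC1 in the MYOD1 comparison (1.49) were not called, and calls fell to 1362 higher and 1192 lower in MYOG against PAX7 cells, 2915 lower against FAPs, 1505 and 1160 in PAX7 cells against FAPs, and 2 and 0 in the MYOD1 comparison (edgeR; 179 and 134 at an unadjusted p under 0.05; DESeq2 with the block called 444 and 428). With gates on thinned cells, ACTA2 between MYOG cells and FAPs was -0.50, ACTC1 between PAX7 cells and FAPs 1.62, and the latter comparison had 1987 and 1858 calls. The cause was not tested in these cases.

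Leaving out each library in turn gave -1.03 to -0.65 for ACTA2 between MYOG cells and FAPs, 0.47 to 1.30 for ACTC1 and -0.73 to -0.17 for ACTA2 between PAX7 cells and FAPs. The fewest genes were called without E18, and the counts ranged from 1807 to 2491 higher and 1662 to 2598 lower in MYOG against PAX7 cells, 1984 to 2778 lower in PAX7 cells against FAPs, and 292 to 333 higher and 232 to 342 lower in the MYOD1 comparison, against 441 and 412 with all libraries. Without the 1% of cells with most ACTA1, 8 of 36 levels moved by over 1.5-fold, and with gates on thinned cells 7 of 36, ACTA1 in E13 FAPs the most, from 21.3 to 8.58 CPM. Depth limits ACTA1 outside MYOG cells and every immune share.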

Other observations

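ACTA1 in immune cells at E23 came mostly from a single cell, which held 139 of 162 UMIs. Without that cell the immune level was 21.2 CPM. MYH15, a myosin heavy chain gene, stood at 326, 192, 352 and 279 CPM in the MYL1 cells outside the gates, against 57.7, 224, 221 and 73.5 CPM in MYOG cells. The sarcomere score of the MYL1 cells was 18032, 24832, 25760 and 35647 CPM, against 5335, 9353, 9008 and 5280 CPM in MYOG cells. MYL1, by which these cells were chosen, is itself a gene of the score, so the choice of cells raises their score. At E23 MYL1 alone stood at 5779 CPM in the MYL1 cells, against 182 CPM in MYOG cells. The score without MYL1 was not tested.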
